A study of Mus musculus with 18 samples.

Results

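The 10 genes described here, Trem2, Tyrobp, Lgals3, Gpnmb, Spp1, Fabp4, Fabp5, Lpl, Cd9 and Plin2, are a signature of Trem2-expressing, lipid-associated macrophages. They were chosen by gene symbol, each was matched to a single Ensembl identifier, and they are 10 of the 49315 genes counted. RNA-seq had been carried out on bone marrow-derived macrophages (BMDMs) in 18 libraries, 3 biological replicates in each of 6 groups. The BMDMs came from C57BL/6J mice labelled WT or HDAC3 KO. The former are the floxed HDAC3f/f controls of the study, and the latter are M-HDAC3-/- mice that carry the floxed Hdac3 allele together with Cre under the Lyz2 (LysM) promoter. BMDMs of each genotype received no cells (untreated), non-apoptotic cells (NACs) or apoptotic cells (ACs) for 45 min, after which they were washed and kept for a further 5 h. Both kinds of added cell were human K562 cells, an erythroleukemia line. The ACs had received UVB for 15 min, 2 h before use. The floxed allele and growth in L929-conditioned medium were shared by all groups. A Lyz2-driven Cre acts in cells of the myeloid lineage and need not recombine every allele. The comparisons ask whether the 10 genes differed between genotype labels under each treatment, between treatments under each label, and whether the treatment difference depended on the label.

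TREM2 is a lipid- and lipoprotein-sensing receptor of macrophages and microglia that signals through its partner TYROBP (DAP12), whose ITAM recruits the kinase SYK. Macrophages that take up dying cells or lipid in atherosclerotic plaques, fatty adipose tissue, liver and demyelinated brain express this receptor together with genes for lectins and matrix proteins (Lgals3, Gpnmb, Spp1), for handling fatty acids (Fabp4, Fabp5, Lpl), for lipid droplets (Plin2) and for the tetraspanin CD9.

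The bases in front of Trem2, Lgals3 and Gpnmb are shown because these 3 genes passed in the same direction in 1 comparison. RefSeq promoter entries on GRCm38.p6 were matched for 6 of the 10 genes, and the 250 bases upstream of the start are printed 5′ to 3′ on the strand of the gene, with capitals marking motif letters found. The Trem2 window is chr17:48346151-48346400, the Lgals3 window chr14:47373610-47373859, which lies inside the span counted for the gene, and the Gpnmb window chr6:49036268-49036517, all on the plus strand.
Trem2: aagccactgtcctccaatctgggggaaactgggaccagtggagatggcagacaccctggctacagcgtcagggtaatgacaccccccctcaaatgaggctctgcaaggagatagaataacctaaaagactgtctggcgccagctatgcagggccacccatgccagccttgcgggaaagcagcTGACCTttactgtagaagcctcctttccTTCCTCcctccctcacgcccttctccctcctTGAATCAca
Lgals3: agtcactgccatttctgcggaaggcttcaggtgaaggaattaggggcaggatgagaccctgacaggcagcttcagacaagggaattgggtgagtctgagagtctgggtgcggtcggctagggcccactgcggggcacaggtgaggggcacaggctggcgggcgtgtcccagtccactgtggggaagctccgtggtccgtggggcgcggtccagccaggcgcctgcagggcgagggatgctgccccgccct
Gpnmb: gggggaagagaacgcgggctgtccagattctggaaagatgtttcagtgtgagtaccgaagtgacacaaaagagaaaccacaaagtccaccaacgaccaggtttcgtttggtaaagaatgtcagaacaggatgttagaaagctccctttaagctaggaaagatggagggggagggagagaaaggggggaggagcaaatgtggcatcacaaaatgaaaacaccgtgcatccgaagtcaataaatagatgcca
Both strands were searched for CACGTG (an E-box), TCATGTG (the M-box of the MITF and TFEB family), TGANTCA (AP-1), GAGGAA (a core of PU.1 sites) and AGGTCA (a core of nuclear receptor sites). The Trem2 window held TGACCT, which is AGGTCA on the other strand, 68 bases before the start, TTCCTC, which is GAGGAA on the other strand, 40 bases before it, and TGAATCA, an AP-1 match, 9 bases before it, with no overlap between them. In the Lgals3 and Gpnmb windows none of these letters were found. Of all 32851 promoter windows of this length, 6.75% held TGANTCA, 23.3% GAGGAA, 14.0% AGGTCA, 6.02% CACGTG and 3.25% TCATGTG, and none of the 7 windows of the 6 matched genes held CACGTG or TCATGTG.

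Total counts ran from 4704491 to 26421267 per library. The targeted gene did not separate the labels. Hdac3 was at 3.38 to 48.7 CPM (counts scaled by library size with the TMM method) in libraries labelled WT and at 4.66 to 74.5 CPM in those labelled HDAC3 KO, and a count over the whole gene includes reads of exons that remain after recombination. The libraries are therefore named by their label throughout, WT for HDAC3f/f and HDAC3 KO for M-HDAC3-/-. Lyz2, whose promoter drives the Cre and which is a macrophage and neutrophil gene, did differ between labels untreated but did not pass with NACs or ACs. Untreated it was at 4530 to 13797 CPM under the WT label and at 1477 to 3088 CPM under the HDAC3 KO label, and was lower under the latter (-1.94 ± 0.55, SE, log2, adjusted p = 0.0425 in edgeR's quasi-likelihood test). That call was lost with GC content and exon length as an offset in the model, where 0.0% of 12080 genes passed. Leaving out untreated replicates 2 or 3 labelled WT, or replicate 3 labelled HDAC3 KO, also gave 0.0% of all genes. With NACs Lyz2 was at 1886 to 6383 CPM under the WT label and at 5124 to 12847 CPM under the HDAC3 KO label. With ACs it was at 3025 to 5387 and 4060 to 10463 CPM in that order. Lyz2 had its higher mean under the HDAC3 KO label with both, and the ranges overlapped. It rose with NACs against untreated under the HDAC3 KO label (2.12 ± 0.46, SE, log2, adjusted p = 0.0376). This call was lost with the size factors of DESeq2, with the replicate number as a block and with the offset, where 0.0% of all genes passed. The same held without untreated replicates 2 or 3 or any NAC replicate of that label. The NAC difference of Lyz2 was higher under the HDAC3 KO label than under the WT label by 3.39 ± 0.74 (SE, log2, adjusted p = 0.00285). All 8 macrophage markers, among them Adgre1, Csf1r and Cd68, were expressed, with a summed level of 5945 to 19697 CPM. Untreated replicate 1 labelled HDAC3 KO was the shallowest library, and 13.6% of its counts fell outside protein-coding genes, against at most 5.46% in the others. The mitochondrial share of counts was 0.496% to 0.621% in untreated libraries labelled WT and 0.272% to 0.434% in those labelled HDAC3 KO, 0.294% to 0.404% and 0.409% to 0.577% with NACs, and 0.341% to 0.480% and 0.493% to 1.19% with ACs, so the labels did not overlap under any treatment. TMM factors were 1.01 to 1.51 and 0.74 to 0.85 untreated and 0.75 to 1.03 and 1.04 to 1.28 with NACs. With ACs they were 1.02 to 1.16 and 0.80 to 1.15, with overlap. The part of these differences in the levels of the 10 genes was not tested. The libraries also differed along base composition. A GC shift was computed for each library as the median deviation of 2604 high-GC genes minus that of 2604 low-GC genes, leaving out the 10 members. On the log2 scale it lay between -1.16 and -0.50 in the untreated libraries labelled WT, between -0.81 and -0.34 in the NAC libraries labelled HDAC3 KO, and between 0.52 and 1.46 in the untreated libraries labelled HDAC3 KO. The NAC libraries labelled WT spread from -0.31 to 0.97. The AC libraries spread from -0.69 to 0.69 under the WT label and from -0.55 to 0.97 under the HDAC3 KO label. Over 11074 genes, the centred mean profile of the NAC libraries labelled HDAC3 KO correlated at 0.77 with that of the untreated libraries labelled WT and at -0.83 with that of the untreated libraries of its own label, across genes, which are not independent replicates. The profile of the untreated libraries labelled HDAC3 KO correlated at 0.60 with the NAC libraries labelled WT, and the NAC and untreated libraries labelled WT at -0.50. Whether labels had been exchanged was not tested, and every difference between labels holds for the labels as given. In bulk RNA, fewer cells that express a gene and less RNA per cell cannot be told apart.

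All 10 genes had counts in every library, from 61 for Fabp4 to 649141 for Gpnmb, and all passed the filter on low counts in every comparison. Levels between genes were compared per kilobase of exon. Lgals3, the beta-galactoside-binding lectin galectin-3, stood highest with a mean of 6001 CPM per kb, followed by Gpnmb, a transmembrane glycoprotein of lysosomes, at 1596 and Tyrobp at 1356 CPM per kb. Plin2, the coat protein of lipid droplets, had 1147 CPM per kb, Fabp5 359, Trem2 303, Spp1 (osteopontin) 225, Cd9 96.0 and Lpl (lipoprotein lipase) 45.7. Fabp4, the fatty acid-binding protein of adipocytes and macrophages, was lowest at 5.22 CPM per kb. The spread between replicates was wide for some genes and narrow for others. The ratio of the highest to the lowest of 3 replicates reached 9.17 for Gpnmb, 8.51 for Fabp4, 7.41 for Lpl, 6.13 for Spp1 and 4.97 for Cd9, each among the untreated libraries labelled HDAC3 KO. It was at most 1.79 for Trem2, 1.89 for Tyrobp, 1.89 for Lgals3, 1.95 for Fabp5 and 3.69 for Plin2 in any group. In the order of the 6 group means, the ranges of every pair of neighbouring groups overlapped for each of the 10 genes.

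**Figure D1:**
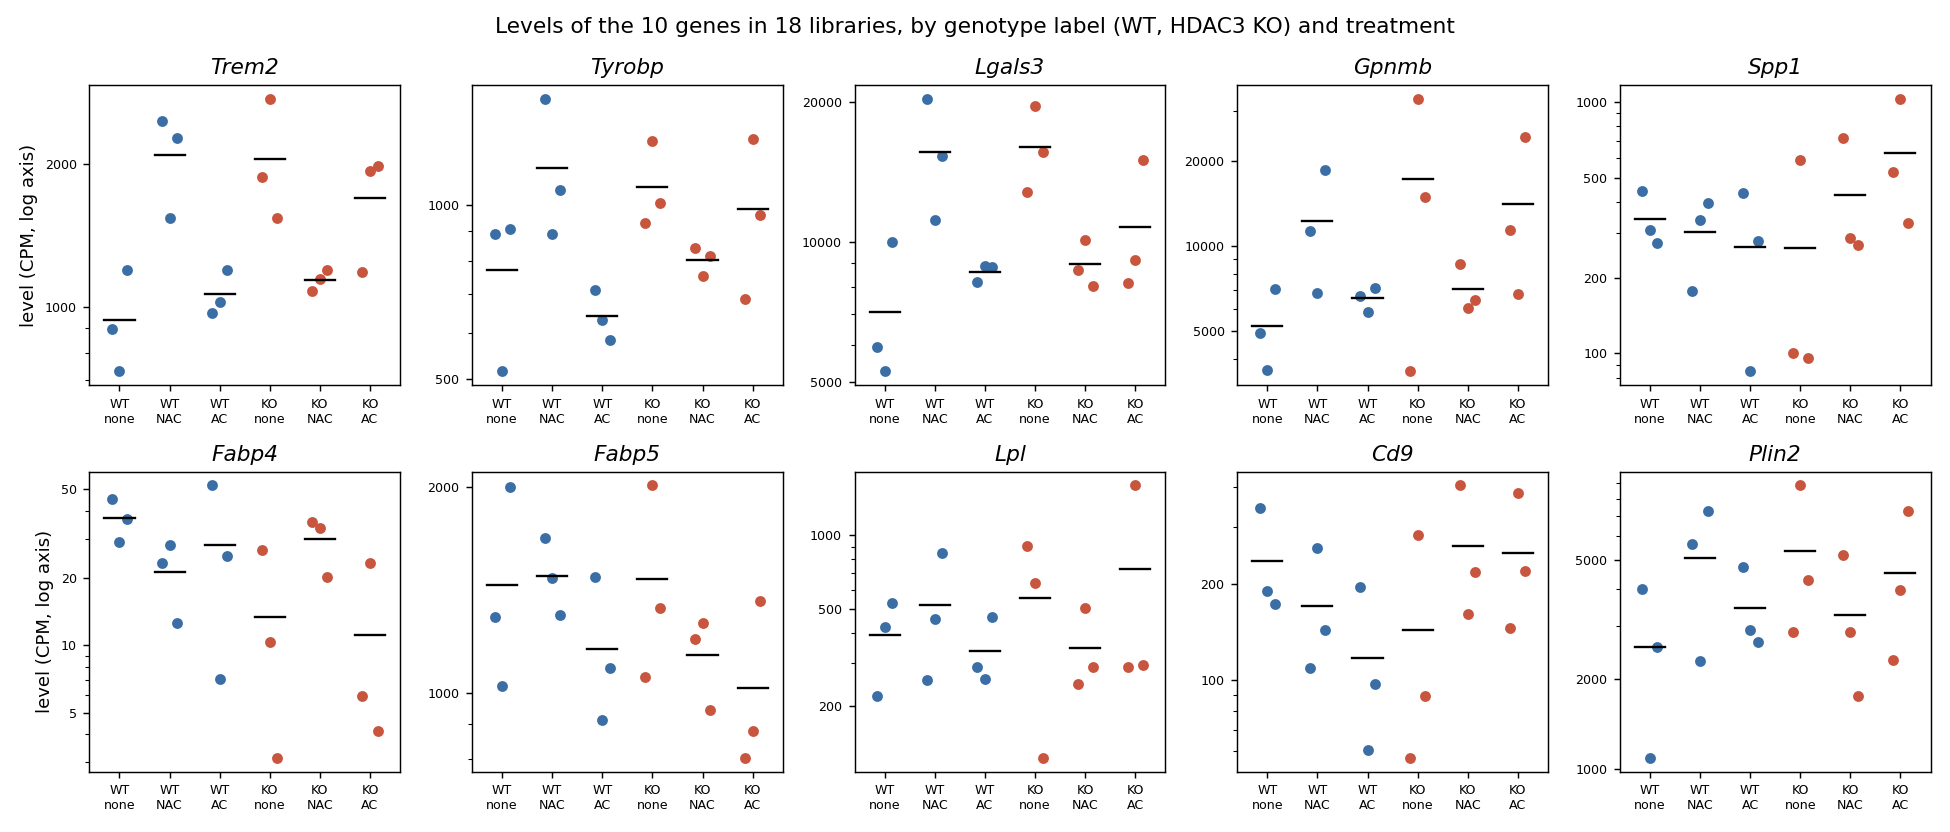
Levels of the 10 genes in CPM (log axis) in 18 libraries, with the 3 replicates of a group as points (blue, labelled WT; red, labelled HDAC3 KO) and the group mean as a line; "none" stands for untreated. Trem2 and Lgals3 have their 2 highest means in the NAC libraries labelled WT and the untreated libraries labelled HDAC3 KO, and Fabp4 has its highest mean in the untreated libraries labelled WT.

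Trem2 (ENSMUSG00000023992, chr17:48346401-48354147 on GRCm38, plus strand) was at 895, 730 and 1193 CPM in replicates 1 to 3 of the untreated libraries labelled WT, at 2469, 1537 and 2264 CPM with NACs and at 969, 1025 and 1197 CPM with ACs. Under the HDAC3 KO label it was at 1874, 2747 and 1537 CPM untreated, at 1078, 1145 and 1192 CPM with NACs and at 1182, 1930 and 1983 CPM with ACs. The labels did not overlap untreated, where HDAC3 KO lay above, or with NACs, where it lay below. They overlapped with ACs. The log2 fold change of the HDAC3 KO over the WT label was 1.07 ± 0.44 untreated (SE, adjusted p = 0.104 in edgeR's quasi-likelihood test), -0.85 ± 0.37 with NACs (adjusted p = 0.169) and 0.63 ± 0.40 with ACs (adjusted p = 0.344), and none of these was under the threshold of 0.05. Tyrobp (ENSMUSG00000030579, chr7:30413760-30417585, plus strand), the adaptor of TREM2, had group means from 642 ± 64.2 CPM (SD, n = 3) with ACs to 1158 ± 328 CPM (SD, n = 3) with NACs, both under the WT label. Its log2 fold changes between labels were 0.40 ± 0.42 untreated, -0.49 ± 0.36 with NACs and 0.57 ± 0.41 with ACs (SE), with adjusted p of 0.491, 0.366 and 0.398. Like Trem2, its labels did not overlap untreated or with NACs.

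Lgals3 (ENSMUSG00000050335, chr14:47367751-47386160, plus strand) was at 5943, 5263 and 9969 CPM in the untreated libraries labelled WT, at 20303, 11152 and 15296 CPM with NACs and at 8192, 8884 and 8801 CPM with ACs. Under the HDAC3 KO label the values were 12778, 19536 and 15552 CPM untreated, 8693, 10096 and 8037 CPM with NACs and 8143, 9118 and 14945 CPM with ACs. As for Trem2, the labels did not overlap untreated or with NACs, in opposite directions, and overlapped with ACs. The log2 fold changes between labels were 1.11 ± 0.48 untreated (SE, adjusted p = 0.110), -0.77 ± 0.40 with NACs (adjusted p = 0.231) and 0.26 ± 0.41 with ACs (adjusted p = 0.728).

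Gpnmb (ENSMUSG00000029816, chr6:49036546-49070929, plus strand) was at 4924, 3662 and 7072 CPM in the untreated libraries labelled WT, at 11323, 6828 and 18511 CPM with NACs and at 6688, 5832 and 7121 CPM with ACs. Under the HDAC3 KO label it was at 3615, 33137 and 14900 CPM untreated, at 8656, 6047 and 6464 CPM with NACs and at 11385, 6776 and 24204 CPM with ACs. Untreated replicates 1 and 2 of the HDAC3 KO label were the lowest and the highest of the 18 libraries, and the labels overlapped in every treatment. The log2 fold change between labels was 1.70 ± 0.69 untreated (SE, adjusted p = 0.0962), -0.76 ± 0.42 with NACs (adjusted p = 0.255) and 1.04 ± 0.46 with ACs (adjusted p = 0.170).

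Spp1 (ENSMUSG00000029304, chr5:104435118-104441050, plus strand), a secreted phosphoprotein, was at 526, 1031 and 330 CPM in the AC libraries labelled HDAC3 KO and at 432, 84.8 and 279 CPM in those labelled WT, so the labels overlapped. Spp1 differed between them by 1.23 ± 0.56 in log2 units (SE, adjusted p = 0.191), beside -0.41 ± 0.66 untreated (adjusted p = 0.664) and 0.52 ± 0.41 with NACs (adjusted p = 0.401), also with overlap. When GC content and exon length entered the model as an offset, the difference with ACs was 1.51 on the log2 scale and passed (adjusted p = 0.0427), in a fit that called 10.1% of 12282 genes against 3.75% without the offset. With the replicate block added to the offset, 0 of the 10 genes passed. Spp1 shares 309 exonic bases with Gm42793 on the same strand, which had 160 counts over all libraries against 122012 of Spp1.

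Fabp4 (ENSMUSG00000062515, chr3:10204088-10208576, minus strand) was at 45.1, 29.0 and 36.8 CPM in the untreated libraries labelled WT, at 23.4, 28.0 and 12.6 CPM with NACs and at 51.9, 7.10 and 25.2 CPM with ACs. Under the HDAC3 KO label it was at 26.6, 10.3 and 3.13 CPM untreated, at 35.5, 33.5 and 20.3 CPM with NACs and at 5.96, 23.4 and 4.12 CPM with ACs. Untreated, all libraries labelled HDAC3 KO lay below all those labelled WT, and with NACs or ACs the labels overlapped. The log2 fold change between labels was -1.61 ± 0.61 untreated (SE, adjusted p = 0.0851), 0.51 ± 0.35 with NACs (adjusted p = 0.348) and -1.32 ± 0.79 with ACs (adjusted p = 0.334). Fabp4 also marks adipocytes, whose other markers Adipoq, Plin1, Lep and Adrb3 were at 0 in 15, 15, 14 and 17 of the 18 libraries. The adipocyte marker Cfd (adipsin) was at 0 in 1 library, with 375 counts in all and at most 5.45 CPM, and with ACs it was lower under the HDAC3 KO label (-3.82 ± 0.91, SE, log2, adjusted p = 0.0315). The call of Cfd was lost without AC replicate 1 labelled HDAC3 KO, where 0.0% of 12723 genes passed. Fabp5 (ENSMUSG00000027533, chr3:10012548-10016607, plus strand), the epidermal type of fatty acid-binding protein, ends 187481 bases before Fabp4 and stayed between 802 and 2009 CPM. Its log2 fold changes between labels were -0.02 ± 0.45 untreated, -0.36 ± 0.36 with NACs and -0.25 ± 0.41 with ACs (SE), with adjusted p of 0.973, 0.515 and 0.735. With NACs its labels did not overlap.

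Lpl (ENSMUSG00000015568, chr8:68880491-68907448, plus strand), which releases fatty acids from lipoprotein triglycerides, was at 289, 1602 and 296 CPM in the AC libraries labelled HDAC3 KO and at 288, 258 and 464 CPM in those labelled WT. Replicate 2 of the HDAC3 KO label alone lay above the other label, a difference of 1.12 ± 0.63 in log2 units (SE, adjusted p = 0.291). Plin2 (ENSMUSG00000028494, chr4:86648386-86670060, minus strand) had its lowest group mean in the untreated libraries labelled WT, 2544 ± 1457 CPM (SD, n = 3), and its highest in those labelled HDAC3 KO, 5343 ± 3137 CPM (SD, n = 3), and these groups overlapped. They differed by 1.02 ± 0.59 in log2 units (SE, adjusted p = 0.218). Cd9 (ENSMUSG00000030342, chr6:125460266-125494791, minus strand), a tetraspanin of the cell surface, had log2 fold changes between labels of -0.76 ± 0.59 untreated, 0.65 ± 0.39 with NACs and 1.06 ± 0.49 with ACs (SE), with adjusted p of 0.352, 0.281 and 0.188 and overlap in each. It shares 218 exonic bases with Gm26728 on the opposite strand, which had 206 counts over all libraries against 62659 of Cd9.

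Between genotype labels, 0 of the 10 genes passed the adjusted threshold in edgeR under any treatment. Untreated, 11.6% of 12101 genes tested passed, with NACs 0.864% of 11923 and with ACs 3.75% of 12304. In the same order, 4, 1 and 3 of the 10 genes had an unadjusted p under 0.05, beside 37.2%, 24.2% and 24.3% of all genes. DESeq2's Wald test called 3 of the 10 untreated (Trem2, Lgals3 and Gpnmb; 27.4% of all genes) and 0 with NACs or ACs, and limma-voom called 1 untreated (Fabp4; 18.8% of all genes) and 0 otherwise. The labels did not overlap for 4 of the 10 genes untreated (Trem2, Tyrobp and Lgals3 above, Fabp4 below), where 40.9% of all genes did not. With NACs they did not for 4 (Trem2, Tyrobp, Lgals3 and Fabp5, all below), beside 27.0% of all genes, and with ACs for 0, beside 28.3%. The median log2 fold change of the 10 genes was 0.43 untreated, -0.53 with NACs and 0.60 with ACs, beside 0.06, -0.00 and -0.01 over all genes tested. Trem2, Lgals3, Gpnmb and Plin2 lay above 0 untreated and with ACs and below 0 with NACs under each scaling tried. Tyrobp and Lpl did so with TMM scaling but turned to -0.07 and -0.08 untreated with library totals alone. With the GC and length offset Tyrobp was at -0.04 untreated and 0.19 with NACs. Single libraries decided some calls. Without untreated replicate 1 labelled HDAC3 KO, the shallowest library, 5 genes passed untreated, Trem2 (1.05), Lgals3 (1.18), Gpnmb (2.07) and Plin2 (1.23) higher and Fabp4 (-2.61) lower on the log2 scale, with adjusted p from 2.76e-06 to 0.0247. In that fit 46.3% of all genes passed. In the 5 other fits that left out a library 0 of the 10 passed, but 3 of these called 0.0% of all genes and the other 2 called 0.608% and 1.98%. Over all 6 Gpnmb was as low as 0.71 and Plin2 as 0.37 and Fabp4 as high as -1.12, with adjusted p up to 0.454, 0.691 and 0.249. Without NAC replicate 2 labelled WT, Trem2 (-0.93) and Cd9 (1.19) passed with NACs, beside 24.6% of all genes. Over the 6 such fits Cd9 ranged from 0.17 to 1.19 (adjusted p up to 0.855) and Trem2 from -0.93 to -0.67 (up to 0.486). Without AC replicate 2 labelled HDAC3 KO, Fabp4 (-2.49) passed with ACs, beside 13.3%, and over the 6 such fits it ranged up to -0.49 (adjusted p up to 0.760) and Gpnmb from 0.45 to 1.43 (up to 0.476).

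**Figure D2:**
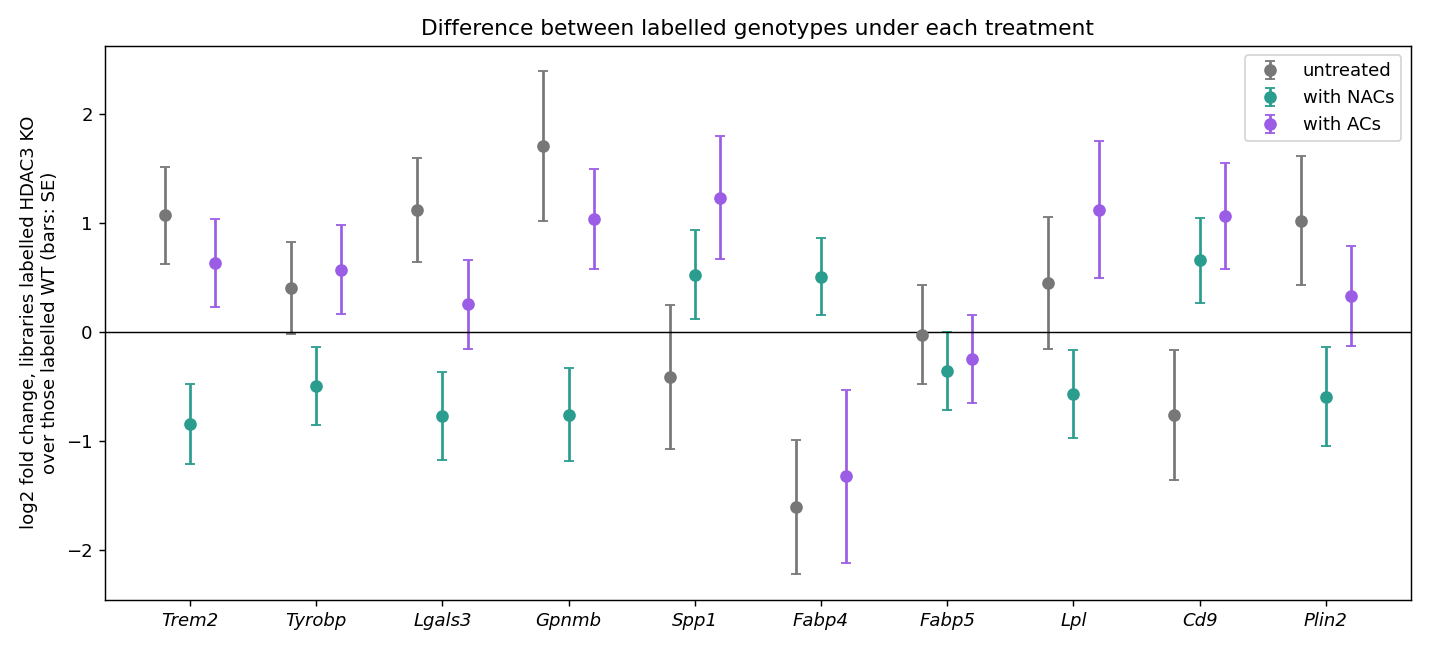
Log2 fold change of libraries labelled HDAC3 KO over those labelled WT (points, with SE as bars) for each of the 10 genes untreated (grey), with NACs (green) and with ACs (purple), 3 libraries per label. Trem2 is at 1.07 untreated, -0.85 with NACs and 0.63 with ACs, and Fabp4 at -1.61, 0.51 and -1.32.

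Within the libraries labelled WT, the treatment comparisons share libraries with each other and with those above. ACs against NACs gave 0 calls among the 10 genes in edgeR, DESeq2 and limma-voom and 0.0% of 11844 genes in edgeR. Among the 10, 4 had an unadjusted p under 0.05, beside 4.16% of all genes. These were Trem2 at -0.94 ± 0.34, Tyrobp at -0.81 ± 0.35, Lgals3 at -0.82 ± 0.35 and Gpnmb at -0.86 ± 0.40 (SE, log2), each with an adjusted p of 0.898. For Trem2, Tyrobp and Lgals3 all AC libraries lay below all NAC libraries, where 10.4% of all genes did not overlap. ACs against untreated gave 0 calls by the same tools and 0.0% of 12199 genes in edgeR. An unadjusted p under 0.05 was found for 12.7% of all genes and for 1 of the 10, Cd9 at -1.07 ± 0.46 (SE, log2, adjusted p = 0.393). For 0 of the 10 were these groups apart, beside 15.5% of all genes. NACs against untreated gave 0 calls in edgeR and limma-voom and 3 in DESeq2 (Trem2, Lgals3 and Gpnmb), beside 8.52% of 11912 genes in edgeR and 14.1% in DESeq2. Of the 10, 4 had an unadjusted p under 0.05, beside 33.2% of all genes. Trem2 was at 1.10 ± 0.45 (SE, log2, adjusted p = 0.0823), Lgals3 at 1.10 ± 0.48 (adjusted p = 0.104), Gpnmb at 1.18 ± 0.48 (adjusted p = 0.0840) and Fabp4 at -0.85 ± 0.38 (adjusted p = 0.102). Trem2 and Lgals3 lay above and Fabp4 below without overlap, as 29.7% of all genes did in either direction. Without NAC replicate 2, 5 genes passed, Trem2 (1.32), Lgals3 (1.32), Gpnmb (1.51) and Plin2 (1.32) higher and Fabp4 (-1.08) lower, beside 34.2% of all genes, and in the 5 other such fits 0 did, beside 0.169% to 10.9%. Over the 6 fits the values nearest 0 were 0.93 for Trem2, 0.82 for Lgals3, 0.72 for Gpnmb, 0.55 for Plin2 and -0.60 for Fabp4, with adjusted p up to 0.495. The medians of the 10 genes in these comparisons were -0.56, -0.31 and 0.45, beside 0.05, -0.11 and -0.10 over all genes.

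Within the libraries labelled HDAC3 KO, 0 of the 10 genes passed in edgeR, DESeq2 or limma-voom in any treatment comparison. ACs against NACs called 7.38% of 12244 genes in edgeR. An unadjusted p under 0.05 was found for 25.3% of all genes and for 2 of the 10, Gpnmb at 1.00 ± 0.44 (SE, log2, adjusted p = 0.156) and Fabp4 at -1.38 ± 0.55 (adjusted p = 0.133). Without AC replicate 2 these passed at 1.32 and -2.55, beside 23.9% of all genes, and without NAC replicate 3 Fabp4 passed at -1.60, beside 4.69%. Over the 6 such fits Gpnmb was as low as 0.40 (adjusted p up to 0.520) and Fabp4 as high as -0.98 (up to 0.413). ACs against untreated called 0.0% of 12136 genes and NACs against untreated 6.54% of 12143, and in neither did any of the 10 have an unadjusted p under 0.05, beside 14.5% and 30.4% of all genes. The value farthest from 0 was 1.41 ± 0.73 for Spp1 with ACs against untreated (SE, log2, adjusted p = 0.384). Over the 6 fits that left out a library Spp1 ranged from 0.82 to 2.83. With NACs against untreated Gpnmb was at -1.09 ± 0.64 (SE, log2, adjusted p = 0.262) and Fabp4 at 1.34 ± 0.66 (adjusted p = 0.197). Without untreated replicate 1, Gpnmb (-1.66) and Fabp4 (2.23) passed with NACs against untreated, beside 35.5% of all genes, and over the 6 such fits the values nearest 0 were -0.16 and 0.80, with adjusted p up to 0.882 and 0.463. Groups free of overlap numbered 0 of the 10 genes for ACs against NACs (29.4% of all genes) and 0 for ACs against untreated (21.5%). For NACs against untreated they numbered 3 (38.7% of all genes), with Trem2, Tyrobp and Lgals3 below. The medians of the 10 genes were 0.39, -0.12 and -0.38, beside 0.09, 0.10 and -0.03 over all genes. In two-sided exact permutation tests on log2(CPM + 1), 17 of the 90 tests of a member between 2 groups reached p = 0.1. This is the smallest value that 3 against 3 libraries allow, and it is reached where the groups do not overlap. These 17 are therefore the cases without overlap already given, not a further test of them. Depending on the pair of groups, 10.4% to 40.9% of all genes did not overlap.

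The term for genotype label by NACs against untreated, the NAC difference under the HDAC3 KO label minus that under the WT label, was the one in which members passed. It was negative for Trem2 at -1.66 ± 0.50 (SE, log2, adjusted p = 0.0155), Lgals3 at -1.65 ± 0.53 (adjusted p = 0.0217) and Gpnmb at -2.16 ± 0.79 (adjusted p = 0.0410), and positive for Fabp4 at 2.34 ± 0.77 (adjusted p = 0.0250). These were 4 of the 10 genes, 1 higher and 3 lower. Over all 13005 genes tested 34.8% passed, 22.1% higher and 12.8% lower, so the share among the 10 is near that of all genes. An unadjusted p under 0.05 was found for 5 of the 10 and for 47.4% of all genes. DESeq2 called the same 4 (43.4% of all genes), and limma-voom called Trem2, Lgals3, Fabp4 and Cd9 (39.2%). Of the others, Cd9 was at 1.72 ± 0.78 (SE, log2, adjusted p = 0.0923), Plin2 at -1.34 ± 0.77 (adjusted p = 0.176), Spp1 at 1.26 ± 0.91 (adjusted p = 0.286), Lpl at -0.78 ± 0.80 (adjusted p = 0.459), Tyrobp at -0.66 ± 0.50 (adjusted p = 0.299) and Fabp5 at -0.09 ± 0.51 (adjusted p = 0.901). The median of all genes was 0.12 with TMM scaling, -0.27 with DESeq2's size factors and 0.70 with library totals alone. Relative to that median, Trem2 lay at -1.79, -1.80 and -1.76, Lgals3 at -1.77, -1.77 and -1.74, Gpnmb at -2.29, -2.31 and -2.26 and Fabp4 at 2.21, 2.20 and 2.12 under the 3 scalings.

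Of the 4 groups in this term, the GC shift was low in the untreated libraries labelled WT and the NAC libraries labelled HDAC3 KO and high in the untreated libraries labelled HDAC3 KO, while the NAC libraries labelled WT ran from near the low groups into the range of the high one. Among the 10 genes, Lgals3 has the highest GC content, 57.5% as the mean over its transcripts, and Fabp4 the lowest, 41.5%. Trem2 is at 56.2% and Gpnmb at 51.2%. When GC content and exon length entered as an offset, 0 of the 10 and 10.6% of all genes passed in edgeR, with Trem2 at -0.87 (adjusted p = 0.196), Lgals3 at -0.47 (adjusted p = 0.483), Gpnmb at -2.47 (adjusted p = 0.0579) and Fabp4 at 0.52 (adjusted p = 0.625). The value of Gpnmb was as large with the offset as without it, and those of the other 3 were smaller. In 12 fits that left out 1 library each, Trem2 passed in 12 (-2.11 to -1.61, adjusted p up to 0.0427) and Lgals3 in 11, all but the fit without NAC replicate 1 labelled HDAC3 KO (adjusted p = 0.0525). Fabp4 passed in 6 (1.61 to 3.00, adjusted p up to 0.0926). It was lost without untreated replicate 1 or NAC replicates 1 or 3 labelled WT, and without untreated replicate 2 or NAC replicates 1 or 2 labelled HDAC3 KO. Gpnmb passed in 4 (-2.93 to -1.49, adjusted p up to 0.111), those without untreated replicate 3 or NAC replicate 2 labelled WT or without untreated replicates 1 or 3 labelled HDAC3 KO. Cd9 (2.45) and Spp1 (2.44) passed without untreated replicate 2 labelled HDAC3 KO, and Plin2 (-2.12) without untreated replicate 1 of that label. Over the 12 fits the values nearest 0 were 1.04 for Cd9, 0.55 for Spp1 and -0.98 for Plin2, with adjusted p up to 0.336, 0.660 and 0.317.

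**Figure D3:**
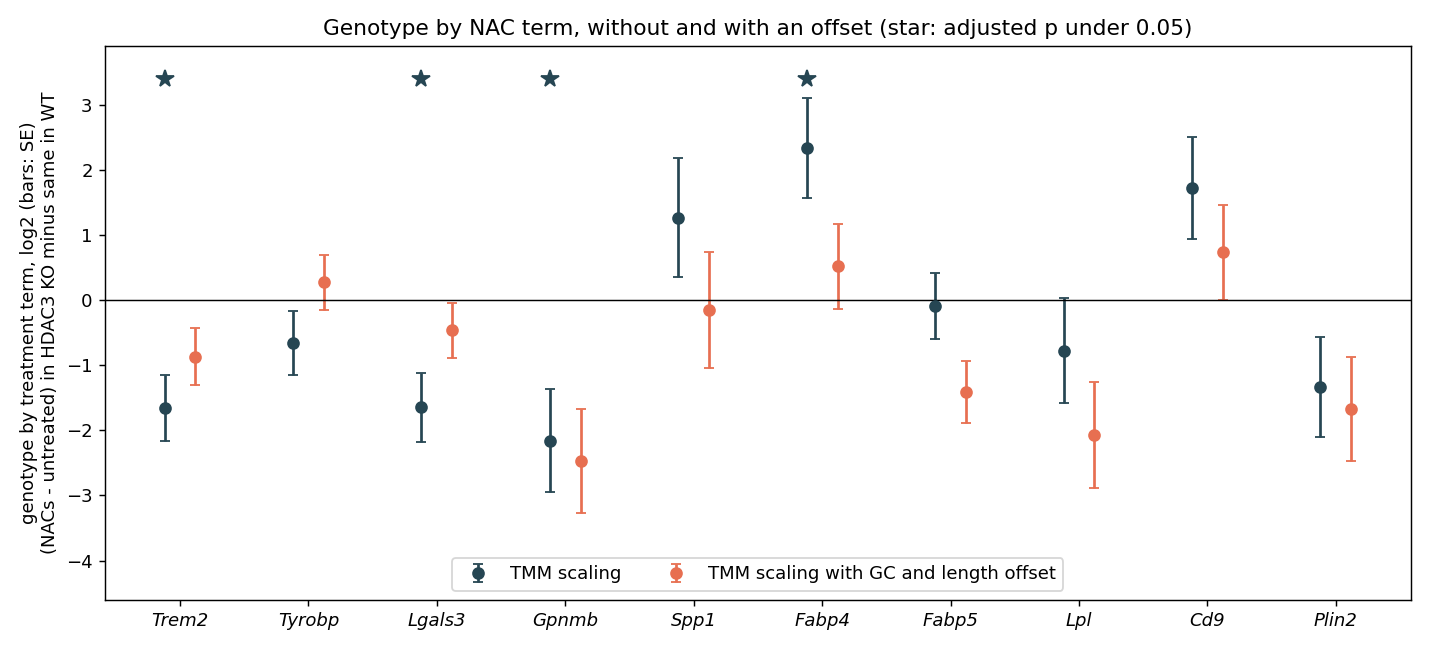
The genotype label by NAC term (points, log2, with SE as bars) for each of the 10 genes with TMM scaling (dark) and with a GC and length offset added (orange); a star marks an adjusted p under 0.05. Trem2, Lgals3, Gpnmb and Fabp4 carry a star without the offset and none of the 10 does with it, where Gpnmb is at -2.47.

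The other terms gave 0 calls among the 10 genes in edgeR. For genotype label by ACs against NACs, 0.0765% of 13076 genes passed, 4 of the 10 and 20.0% of all genes had an unadjusted p under 0.05, DESeq2 called 2 (Trem2 and Gpnmb; 5.83% of all genes) and limma-voom 0. Trem2 was at 1.55 ± 0.49 (SE, log2, adjusted p = 0.102), Gpnmb at 1.90 ± 0.64 (adjusted p = 0.116), Tyrobp at 1.14 ± 0.49 (adjusted p = 0.205) and Lgals3 at 1.12 ± 0.52 (adjusted p = 0.237). The median of the 10 was 1.07 beside 0.06 over all genes, and all but Fabp4 (-1.81 ± 0.94, SE, adjusted p = 0.299) lay above 0, Fabp5 turning below 0 with library totals alone. Without AC replicate 2 labelled HDAC3 KO, Gpnmb (2.24) and Fabp4 (-2.95) passed, beside 6.14% of all genes, and over the 12 fits the values nearest 0 were 1.12 and -1.08, with adjusted p up to 0.348 and 0.627. For genotype label by ACs against untreated, which uses no NAC library, 0.0% of 13225 genes passed, 1 of the 10 had an unadjusted p under 0.05 (Cd9 at 1.79 ± 0.82, SE, log2, adjusted p = 0.190) beside 24.1% of all genes, and DESeq2 and limma-voom called 0. The median of the 10 was -0.05 beside -0.03 over all genes.

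Across the 18 libraries, Trem2 was compared with each of the other 9 genes on log2(CPM + 1), with permutation p-values adjusted over the 9 relations for each coefficient. It varied together with Lgals3 (r = 0.91 and rho = 0.86, adjusted permutation p = 9e-05 and 0.00018), with a raw permutation p for r of 1e-05 that is the smallest 100000 permutations can give. The same held for Tyrobp (r = 0.84 and rho = 0.83, raw permutation p = 3e-05 and 8e-05, adjusted 0.000135 and 0.00036) and Gpnmb (r = 0.68 and rho = 0.65, raw permutation p = 0.00198 and 0.00394, adjusted 0.00502 and 0.0118). For Plin2 r passed and rho did not (r = 0.67 and rho = 0.51, raw permutation p = 0.00223 and 0.0344, adjusted 0.00502 and 0.0619). For Fabp4 rho passed and r did not (r = -0.38 and rho = -0.54, raw permutation p = 0.123 and 0.0212, adjusted 0.165 and 0.0477). Without the 2 libraries farthest from the median of Trem2, r was 0.85 for Lgals3, 0.76 for Tyrobp, 0.56 for Gpnmb, 0.55 for Plin2 and -0.41 for Fabp4. After subtraction of the 6 group means, r was 0.77 for Lgals3, 0.74 for Tyrobp, 0.47 for Gpnmb, 0.60 for Plin2 and 0.13 for Fabp4. The permutations moved all 18 libraries freely and did not keep the 6 groups, so their p-values take no account of differences between groups. No p-value was computed after the subtraction. Lpl (r = 0.39, rho = 0.43), Fabp5 (r = 0.37, rho = 0.38), Cd9 (r = -0.06, rho = -0.10) and Spp1 (r = 0.02, rho = -0.02) passed by neither coefficient, with adjusted permutation p from 0.113 to 0.948. The 5 non-members with the highest r with Trem2 over the 18 libraries were Vkorc1 (0.96), which recycles vitamin K, Anxa2 (0.95), an annexin that binds membrane lipids, Gpx1 (0.94), a glutathione peroxidase, Ftl1 (0.94), the ferritin light chain, and Ftl1-ps1 (0.93), a pseudogene of Ftl1 whose reads are hard to assign apart from it. These values describe libraries that share depth and base composition, and carry no test.

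The GC shift itself was compared with each of the 10 genes, with permutation p-values adjusted over the 10 relations. Lgals3 (r = 0.87 and rho = 0.83, raw permutation p = 1e-05 and 4e-05, adjusted 0.0001 and 0.0004), Trem2 (r = 0.73 and rho = 0.75, raw permutation p = 0.00069 and 0.0005, adjusted 0.0023 and 0.00167) and Gpnmb (r = 0.67 and rho = 0.63, raw permutation p = 0.00204 and 0.00583, adjusted 0.0051 and 0.0146) were higher in libraries with a higher shift. Fabp4 was lower in them (r = -0.76 and rho = -0.79, raw permutation p = 0.0002 and 0.00022, adjusted 0.001 and 0.0011). Without the 2 libraries farthest from the median shift r was 0.84, 0.74, 0.58 and -0.67 for Lgals3, Trem2, Gpnmb and Fabp4, and within the 6 groups it was 0.74, 0.38, 0.56 and -0.77. Here too the permutations moved the libraries freely across the 6 groups, and no p-value was computed within groups. Cd9 (r = -0.55, adjusted permutation p = 0.0322), Plin2 (r = 0.55, adjusted permutation p = 0.0322) and Spp1 (r = -0.50, adjusted permutation p = 0.049) passed by r alone, with rho of -0.52, 0.46 and -0.40, and Tyrobp, Fabp5 and Lpl passed by neither. The part of the GC shift in the differences between groups was not tested beyond the offset given above.

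**Figure D4:**
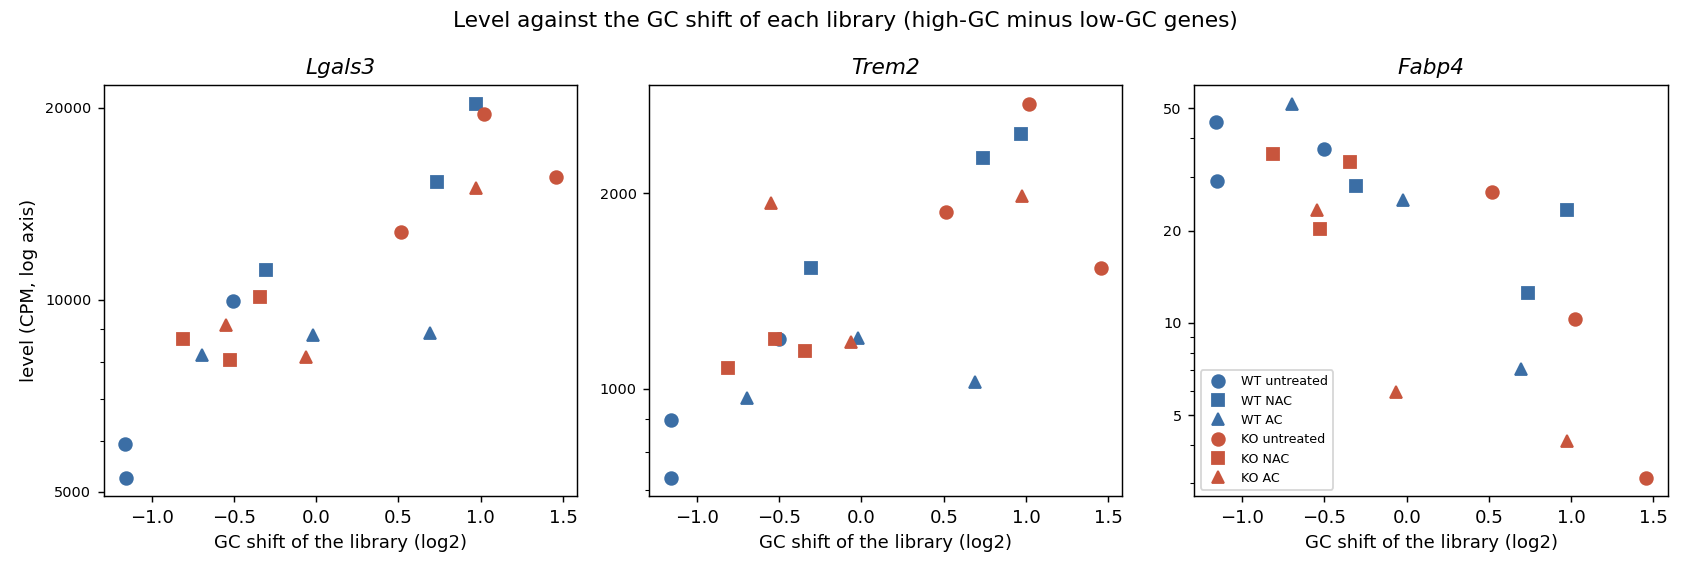
Level of Lgals3, Trem2 and Fabp4 (CPM, log axis) against the GC shift of each of the 18 libraries (log2, high-GC minus low-GC genes), with colour for the genotype label and symbol shape for the treatment. Lgals3 and Trem2 are higher (r = 0.87 and 0.73) and Fabp4 is lower (r = -0.76) where the shift is higher.

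Genes that act with TREM2 or accompany it were taken as 3 lists. Of 16 genes for TREM2 ligands, adaptors and signalling, 15 were tested between labels untreated, where 3 were lower and 1 was higher, beside 11.6% of all genes called. Adam10 (-1.74 ± 0.45, SE, log2, adjusted p = 0.0339) and Adam17 (-1.70 ± 0.47, adjusted p = 0.0391), the proteases that shed TREM2 from the cell surface, and the membrane protein gene Ms4a4a (-1.74 ± 0.52, adjusted p = 0.0468) were lower under the HDAC3 KO label. Vav1 (1.69 ± 0.47, adjusted p = 0.0408), a guanine nucleotide exchange factor, was higher. Each call held in 1 of 6 fits that left out a library, the one without untreated replicate 1 labelled HDAC3 KO. The 6 fits called between 0.0% and 46.3% of all genes. All 4 calls were lost with the GC and length offset, where 0.0% of 12080 genes passed. Vav1 was also lost with library totals alone and with the replicate block, and Ms4a4a with limma-voom. With NACs Adam17 was higher under the HDAC3 KO label (1.53 ± 0.37, SE, log2, adjusted p = 0.0445), in 2 of 6 fits that left out a library, those without replicate 2 labelled WT or replicate 3 labelled HDAC3 KO. This call was lost with library totals alone, with limma-voom, with all 18 libraries in the fit and with the offset, where 0.0084% of 11905 genes passed. Adam17 stood at 75.6 ± 22.6 and 24.8 ± 9.16 CPM (SD, n = 3) in the untreated libraries labelled WT and HDAC3 KO and at 28.6 ± 14.7 and 81.4 ± 23.1 CPM (SD, n = 3) with NACs. With NACs against untreated, Adam10, Adam17 and Ms4a4a fell under the WT label (-1.39, -1.47 and -1.38) and rose under the HDAC3 KO label (1.75, 1.90 and 1.89), beside 8.52% and 6.54% of all genes called. These calls held in 2 of 6 fits that left out a library under the WT label. Under the HDAC3 KO label they held in 1 of 6. All were lost with the GC and length offset. The falls were also lost with library totals alone and with all 18 libraries in the fit, where 0.0% of all genes passed. That of Ms4a4a was lost too with the size factors or the Wald test of DESeq2, limma-voom or no filter. The rises were also lost with the size factors of DESeq2 and with the replicate block, where 0.0% of 12143 genes passed. That of Ms4a4a was lost too with all 18 libraries in the fit. The term for label by NACs was higher for 5 of the 16 genes and lower for 1, beside 22.1% and 12.8% of all genes. With ACs against NACs under the HDAC3 KO label, Inpp5d, the phosphatase SHIP1, rose (1.49 ± 0.43, SE, log2, adjusted p = 0.0320), a call held in the fit without AC replicate 2 and in none of the other 5 such fits, and lost with library totals alone, with limma-voom, with all 18 libraries in the fit and with the offset.

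Of 25 further lipid-associated and disease-associated macrophage genes, 2 were higher and 2 lower between labels with ACs, beside 3.75% of all genes called. Itgax, the integrin CD11c, stood at 59.8 ± 27.0 CPM under the HDAC3 KO label and 9.16 ± 4.70 CPM under the WT label (SD, n = 3) and was higher (2.64 ± 0.48, SE, log2, adjusted p = 0.0153), as was the lysosomal protease gene Ctsl (2.20 ± 0.48, adjusted p = 0.0240). Lgals1, galectin-1, stood at 2459 ± 1084 and 10388 ± 1637 CPM (SD, n = 3) and was lower (-2.14 ± 0.44, SE, log2, adjusted p = 0.0194), as was the beta-glucan receptor gene Clec7a (-2.49 ± 0.52, adjusted p = 0.0214). All 4 calls were lost without AC replicate 1 labelled HDAC3 KO, where 0.0% of 12723 genes passed and the values were 2.80 for Itgax, 2.53 for Ctsl, -1.88 for Lgals1 and -2.40 for Clec7a, each with an adjusted p of 0.314. That of Clec7a was also lost without AC replicate 3 of that label and with the GC and length offset and the replicate block together. With ACs against NACs under the HDAC3 KO label the same 4 genes passed in the same directions together with Axl, a receptor for apoptotic cells (1.81 ± 0.45, SE, log2, adjusted p = 0.0183), beside 7.38% of all genes called. All 5 calls were lost without AC replicate 1, where 0.0% of 12689 genes passed, with Itgax at 2.54, Ctsl at 2.09, Axl at 1.76, Lgals1 at -1.53 and Clec7a at -2.30 (adjusted p from 0.0919 to 0.171). Itgax and Clec7a held in the 5 other fits that left out a library, Lgals1 in 4 and Ctsl and Axl in 2, the call of Lgals1 being lost without NAC replicate 2 as well. Ctsl was also lost without NAC replicates 2 or 3 or AC replicate 3, and Axl without NAC replicates 1 or 2 or AC replicate 3. With all 18 libraries in the fit Itgax, Ctsl, Axl and Clec7a lost their calls. Axl was also lost with library totals alone and Clec7a with the GC and length offset, while Lgals1 kept its call in each of the 10 settings. Untreated, Itgax alone of this list passed between labels (3.15 ± 0.80, SE, log2, adjusted p = 0.0331), beside 11.6% of all genes called. Of 6 fits that left out a library it held in the one without untreated replicate 1 labelled HDAC3 KO, and it was lost with the offset. With NACs against untreated under the WT label, Itgax (1.93) and Vat1 (1.39) rose and the transcription factor gene Mitf (-1.11) fell, beside 8.52% of all genes called. These calls held in 3, 2 and 2 of 6 such fits. All 3 were lost with the offset, with library totals alone and with all 18 libraries in the fit, and those of Vat1 and Mitf also with limma-voom. Between labels the list had a median of 0.59 untreated, -0.09 for NACs and 0.23 for ACs. The term for label by NACs was higher for 4 and lower for 5 of the 25 genes, a share near the 34.8% of all genes.

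Of 25 genes for fatty acid uptake, lipid droplets and their regulators, 24 were tested between labels untreated, where 2 were higher and 1 was lower, a share near the 11.6% of all genes. Mgll, the monoacylglycerol lipase (2.52 ± 0.56, SE, log2, adjusted p = 0.0250), and the nuclear receptor gene Ppard (1.47 ± 0.42, adjusted p = 0.0437) were higher under the HDAC3 KO label, and the scavenger receptor gene Msr1 (-2.14 ± 0.46, adjusted p = 0.0228) was lower. Ppard held in 1 and Mgll and Msr1 in 2 of 6 fits that left out a library, and all 3 held without untreated replicate 1 labelled HDAC3 KO. All 3 were lost with the offset, and Ppard also with library totals alone and with the replicate block. With ACs 1 of the 23 genes tested passed, a share near the 3.75% of all genes. This was Cpt1a, which carries fatty acids into mitochondria (1.65 ± 0.43, SE, log2, adjusted p = 0.0445). Its call held in the fit without AC replicate 2 labelled HDAC3 KO and in none of the other 5. It was lost with library totals alone, limma-voom, all 18 libraries in the fit or the replicate block. With NACs against untreated under the WT label 4 genes rose, among them Mgll (1.89), Hilpda (1.51) and the triglyceride lipase gene Pnpla2, beside 8.52% of all genes called. Under the HDAC3 KO label Msr1 rose (1.98), beside 6.54%. The calls of Mgll, Hilpda, Pnpla2 and Msr1 held in 3, 2, 2 and 1 of 6 fits that left out a library and were lost with the offset. Mgll, Hilpda and Pnpla2 were also lost with library totals alone and with all 18 libraries in the fit. Hilpda and Pnpla2 were lost with limma-voom too, and Pnpla2 with no filter. Under the HDAC3 KO label Msr1 was also lost with the size factors of DESeq2 and with the replicate block, where 0.0% of 12143 genes passed. Msr1 fell with ACs against NACs under that label (-1.85 ± 0.41, SE, log2, adjusted p = 0.00721), in 4 of 6 such fits, those without AC replicates 1 or 3 losing the call. The term for label by NACs was higher for 2 and lower for 9 of the 24 genes tested, with a median of -1.25 beside 0.12 over all genes, of which 22.1% were higher and 12.8% lower. Of the 50 calls of list genes named here by the rule, which are not all calls of the lists, 12 held in every fit that left out 1 library. All 12 were calls of the term for label by NACs, where 22.3% to 46.2% of all genes passed in those fits. With the GC and length offset 35 of the 50 were lost.

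Markers of other cells were read in the same libraries. The summed level of 6 osteoclast markers was 44.8 to 116 CPM in the untreated libraries labelled WT and 123 to 784 CPM in those labelled HDAC3 KO, 107 to 472 and 82.4 to 242 CPM with NACs, and 79.0 to 202 and 137 to 379 CPM with ACs. Osteoclasts also express Gpnmb and Spp1. Among these markers Acp5, Ctsk and Mmp9 were expressed, Mmp9 with its highest level of 511 CPM in the library with the highest Gpnmb, while Calcr and Oscar were at 0 in 15 and 16 of the 18 libraries. Of the 4 osteoclast markers tested, 2 passed between labels untreated, Dcstamp (3.29) and Mmp9 (2.40), and 2 with ACs, Acp5 (1.72) and Ctsk (1.70), all higher under the HDAC3 KO label on the log2 scale, beside 11.6% and 3.75% of all genes called, and 0 passed with NACs. The 2 untreated calls were lost with the GC and length offset, where 0.0% of 12080 genes passed. They were also lost without untreated replicates 2 or 3 labelled WT or replicate 3 labelled HDAC3 KO, where 0.0% passed. The 2 calls with ACs were lost without AC replicate 1 labelled HDAC3 KO, where 0.0% of 12723 genes passed. With NACs against untreated under the WT label Acp5 (1.93), Dcstamp (2.46) and Mmp9 (2.06) rose, beside 8.52% of all genes. These calls were lost with library totals alone, with all 18 libraries in the fit and with the offset, where 0.0% of all genes passed. With ACs against NACs under the HDAC3 KO label Acp5 (1.65) and Dcstamp (2.28) rose, beside 7.38%, and both calls were lost without AC replicate 1, where 0.0% of 12689 genes passed. In the term for label by NACs 2 of the 4 passed, Acp5 at -3.66 and Dcstamp at -5.16, while Mmp9 was at -2.92 and Ctsk at 0.38, beside 34.8% of all genes called and 12.8% called lower. The other comparisons gave 0 calls among them. The summed level of 8 neutrophil markers was 222 to 1267 CPM and that of 5 fibroblast markers 4.31 to 221 CPM over the 18 libraries, that of 5 B cell markers 7.16 to 67.5, that of 7 erythroid markers 0.757 to 45.8, that of 5 dendritic cell markers 0.265 to 2.72 and that of 5 adipocyte markers 0.115 to 5.45 CPM. Among these and the macrophage markers, the term for label by NACs called 2 of 4 B cell markers lower, Cd79a (-3.98) and Cd79b (-2.65), 1 of 8 neutrophil markers lower, Ltf (-1.85), and of 8 macrophage markers Itgam (1.95) and Lyz2 (3.39) higher and Cd14 (-1.82) lower. With NACs against untreated under the WT label Cd79b rose (1.63), a call lost with library totals alone, with all 18 libraries in the fit and with the offset. With ACs against NACs under the HDAC3 KO label Col1a2 (2.48) and Col3a1 (2.26), of 5 fibroblast markers, and Ltf (1.38) rose. Without AC replicate 1 of that label these calls were lost, as 0.0% of 12689 genes passed. Between labels with ACs the neutrophil marker Elane was lower (-2.26), a call lost without AC replicate 1 labelled HDAC3 KO, where 0.0% of 12723 genes passed. The part of these cells in the levels of the 10 genes was not tested. With ACs the erythroid sums were 1.57 to 45.8 CPM labelled WT and 0.757 to 17.2 CPM labelled HDAC3 KO. Untreated and with NACs they reached at most 4.70 CPM under either label. The added K562 cells are an erythroleukemia line, and whether reads of these human cells entered the counts was not tested.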

How the data were processed

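Per the labels, RNA of BMDMs was extracted with TRIzol and sequenced as paired reads in 18 libraries. The deposited values are raw counts of reads per gene and library, and the submitters' processing notes name Trimmomatic 0.36, STAR 2.5.2b, Subread 1.5.2 with featureCounts, and GRCm38. Whether counting used strand is not given in the sources used here. Groups were taken from the labels. The replicates are biological by the labels, and nothing ties a replicate number to an animal.

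The libraries of each comparison were fitted by themselves in edgeR 4.0.16 (quasi-likelihood test, robust, TMM scaling, filterByExpr with a minimum count of 10 and a minimum total of 15) in R 4.3.3, with Benjamini-Hochberg adjustment over all genes tested and a threshold of 0.05. The SE is the absolute log2 fold change divided by the square root of F. DESeq2 1.42.0, limma-voom (limma 3.58.1), other scalings and filters, a fit of all 18 libraries, the replicate number as a block, an offset for GC content and exon length (smooth per library, mgcv 1.9.3) and leaving out each library were tried as alternatives. Single values were tested by exact permutation on log2(CPM + 1), and correlations with 100000 permutations in SciPy 1.17.1. The GC shift is described with the libraries. The fitting was also run on simulated counts. The simulation had no GC shift between libraries, so it cannot show how the fits behave under the shift seen here. The 10 members and all lists were chosen with earlier results of these data known, so they are no independent support.

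Named were all 10 members, Hdac3 and Lyz2 as checks, of each list and comparison at most the 3 genes with the smallest p in each direction among those that passed, and the 5 non-members closest to Trem2. The cell type markers given with fold changes were named after their values were seen. Of the 49315 genes, 48970 matched GENCODE M21, from which GC content was taken as the mean over the transcript sequences of a gene. Columns of per-sample values left unused number 0.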

Additional observations from a re-analysis of the deposited data

Results flagged for a closer look

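The difference between NACs and untreated libraries differed between the genotype labels, by the test of the term itself, for 4 of the 10 genes and for 15 genes of the 3 lists named by the rule, where 34.8% of all genes passed. For the members, the term was -1.66 for Trem2, -1.65 for Lgals3, -2.16 for Gpnmb and 2.34 for Fabp4 on the log2 scale, and none of these passed with the GC and length offset. Of the list genes that act with TREM2, it was 3.50 for Adam17, 3.28 for Adam10, 3.39 for Ms4a4a and -1.96 for Vav1. Of the lipid genes, it was 3.19 for Msr1, 2.15 for Cd36, -3.62 for Mgll, -2.11 for Pnpla2 and -1.81 for Plin3, and Cd36 held in 2 of 12 fits that left out a library. Of the further lipid-associated genes, it was 2.44 for Emp1, 2.56 for Mitf, 2.85 for Tfec, -2.18 for Vat1, -1.69 for Tfeb and -4.09 for Itgax, and the calls of Tfec and Tfeb were lost without NAC replicate 1 labelled HDAC3 KO. With the offset, 11 of these 15 list genes lost their call, all but Adam17, Vav1, Mgll and Itgax, and with the offset and the replicate block together Itgax alone kept it. The difference between ACs and NACs differed between the labels for Itgax, at 4.00 on the log2 scale, beside 0.0765% of 13076 genes called. That call held in 4 of 12 fits that left out a library. It was lost with library totals alone, with limma-voom and with all 18 libraries in the fit.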

How the results depend on the processing

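The count of members that passed changed with the processing in 7 of 12 comparisons, and the share of all genes called, given after each count, moved as well. Between labels untreated (0 in edgeR, 11.6% of all genes) it was 1 with library totals alone (19.9%), 3 with DESeq2 (27.4%), 1 with limma-voom (18.8%), 2 with no filter (5.69%), 3 with all 18 libraries in the fit (24.2%) and 1 with the replicate block (11.0%). Between labels with ACs (0 in edgeR, 3.75%) it was 1 with the GC and length offset (10.1%). With NACs against untreated under the WT label (0 in edgeR, 8.52%) it was 3 with DESeq2 (14.1%) and 3 with the replicate block (15.0%), and under the HDAC3 KO label (0 in edgeR, 6.54%) 1 with no filter (6.3%). With ACs against NACs under the HDAC3 KO label (0 in edgeR, 7.38%) it was 1 with no filter (4.19%) and 1 with the replicate block (11.4%). For label by ACs against NACs (0 in edgeR, 0.0765%) it was 2 with DESeq2 (5.83%) and 2 with no filter (1.92%). For label by NACs against untreated (4 in edgeR, 34.8%) it was 3 with the size factors of DESeq2 (38.5%), 2 with library totals alone (30.8%), 0 with the GC and length offset (10.6%), 0 with that offset and the replicate block (5.55%), 3 with the block alone (31.7%), 3 with all 18 libraries in the fit (34.7%) and 5 with no filter (15.1%). Leaving out 1 library at a time gave 0 to 5 members between labels untreated, where 0.0% to 46.3% of all genes passed, 0 to 2 with NACs (0.0% to 24.6%) and 0 to 1 with ACs (0.0% to 13.3%). It gave 0 to 5 for NACs against untreated under the WT label (0.169% to 34.2%), 0 to 2 under the HDAC3 KO label (0.0% to 35.5%) and 0 to 2 for ACs against NACs under the HDAC3 KO label (0.0% to 23.9%). For label by ACs against NACs it gave 0 to 2 (0.0% to 6.14%), for label by NACs against untreated 1 to 5 (22.3% to 46.2%), and 0 to 0 in the 4 other comparisons (0.0% to 8.11%). The member counts are therefore not read as particular to the members. The causes were not tested. Replicate numbers were not taken to pair the libraries: in 0 of the 9 pairs of groups compared directly did all same-numbered libraries correlate over 0.1 in their deviations (-0.33 to 0.46), and in 1 of the 6 other pairs, ACs labelled WT with NACs labelled HDAC3 KO, they did (0.18 to 0.49). Of 1200 member values under other settings 69 had another sign, and of 900 with a library left out 56, none of them between values that both passed. Fabp4 had the lowest counts of the members, 61 to 763 per library.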
